A study of Mus with 4 samples.

Results

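The keratin family was examined as 61 probe sets, of 45037 tested, on Affymetrix mouse expression arrays. They were picked by name: the platform annotation gives each of them 1 gene symbol, made of Krt followed by a number. The family, its classes and the lists set beside it were chosen with earlier results of these data known. The 61 probe sets stand for 48 genes, of 18193 genes measured. A further probe set that the annotation assigns to Krt17 and Krt14 together was left out. RNA came from PPS-ICBR cells, labelled as a prostate cancer cell line of the C57Bl6 mouse strain. The cells, seeded at 60% confluency, were cultured overnight with 5 µM vorinostat dissolved in DMSO, and the control dishes received only the solvent (5 µL of DMSO per 10 mL of medium). Each group had 2 arrays, called DMSO 1, DMSO 2, Vorinostat 1 and Vorinostat 2. Vorinostat inhibits histone deacetylases, the enzymes that remove acetyl groups from histones and other proteins. All arrays come from a single line, and the labels do not say whether the arrays of a group were separate cultures. Any p-value here therefore reflects only how far these arrays lay apart, a spread that may be technical.

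Keratins are the intermediate filament proteins of epithelial cells. A filament is built from pairs of an acidic type I keratin and a basic type II keratin, and each kind of epithelium uses its own pairs. Simple, single-layered epithelia such as the luminal layer of the prostate make Krt8 with Krt18, and often Krt7 and Krt19. Basal cells of stratified epithelia, and basal cells of the prostate, make Krt5 with Krt14, and Krt15. Krt6a, Krt6b, Krt16 and Krt17 are known as hyperproliferative or wound keratins of the epidermis. Suprabasal keratins mark the differentiating layers, root sheath keratins the sleeve around the growing hair, and hair keratins the hard hair shaft.

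Expression is the deposited log2 value of a probe set, with n = 2 arrays per group. Changes are vorinostat minus DMSO on the log2 scale, with the standard error (SE) and a two-sided p from limma, adjusted by the Benjamini-Hochberg method over all 45037 probe sets. A change with an adjusted p under 0.05 is called higher or lower. Where a gene has several probe sets, the one with the highest mean over the 4 arrays represents it in counts of genes. A probe set was taken as near background when each array of a group lay within 1 log2 unit of the highest of 3 control probe sets (TrpnX) for a bacterial transcript. These controls ran from 2.07 to 2.78, so the limit lay between 3.54 and 3.78 depending on the array. Probes differ in their own background, so a value above the limit does not by itself show that a gene is expressed. The array medians lay between 4.19 and 4.28.

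The arrays carried an epithelial profile with mesenchymal transcripts beside it. All 5 epithelial markers lay above the limit in both groups. Of these, Cldn4 rose by 0.77, Cldn7 fell by 0.46 and Esrp1 fell by 0.83, while Epcam and Cdh1 did not pass. Among all genes 20.9% rose and 18.9% fell, and the counts in these short marker lists were not tested against those shares. The summed level of the epithelial list was 37.26 to 37.32 log2 units in DMSO and 36.30 to 36.56 in vorinostat, without overlap. Of 7 prostate luminal markers measured, Krt8 and Krt18 among them, 2 rose and 1 fell. Hoxb13 lay between 8.24 and 8.82 and rose by 0.54, Psca rose by 1.32, and Krt8 fell. The secretory marker Pbsn stayed near background at 2.00 to 2.24. The summed level of the luminal list was 52.50 to 52.85 log2 units in DMSO and 53.35 to 53.37 in vorinostat, without overlap. Taken gene by gene, the arrays of both groups did not overlap for 68.9% of all genes, so a lack of overlap was common. The mesenchymal filament gene Vim lay at 13.05 to 13.47. Of 5 fibroblast markers, Dcn and Pdgfra rose and Col3a1 fell, with Lum near background. The summed level of that list was 35.31 to 35.77 log2 units in DMSO and 36.25 to 37.73 in vorinostat. Of 6 mesenchymal markers 2 rose and 2 fell, and their summed level was 49.47 to 49.60 in DMSO and 47.99 to 49.24 in vorinostat. Of 4 immune markers Cd3e rose, from 4.44 and 4.57 in DMSO to 4.96 and 4.91, while Ptprc was near background on every array. Of 4 endothelial markers none passed, with Pecam1 near background. Summed levels also did not overlap for the fibroblast, mesenchymal, basal, neuroendocrine and hair follicle lists. For the immune and endothelial lists they overlapped. The part of these cell type markers in the keratin changes was not tested. In such bulk samples, fewer cells of a type and less RNA per cell cannot be told apart.

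Most keratins were dim, and the changes lay among a small number of genes. With vorinostat, Krt8, Krt7, Krt6a, Krt4 and Krt80 fell and Krt19 rose, while Krt18 had a change of -0.07. Of the 61 probe sets, 2 rose and 9 fell, or 3.28% and 14.8%, where 16.5% of all probe sets rose and 15.7% fell. In either direction 18.0% of keratin probe sets were called, against 32.2% of all. Among the 48 genes, 1 rose and 5 fell, against 20.9% and 18.9% of all genes. That is 12.5% of keratin genes in either direction, where 39.9% of all genes were called. The arrays of both groups did not overlap for 33 of the 61 probe sets, or 54.1%, where all probe sets gave 62.8%. Over genes this held for 25 of 48, or 52.1%, against 68.9% of all. Keratins were thus called less often than the average gene in this comparison, and no test was made of that. The keratin genes had a median change of -0.03, and all genes had 0.03. Of the 48 genes, 20 were near background on all 4 arrays, as were 4650 of all 18193 genes. The median level of the keratin genes lay between 3.64 and 3.89 over the arrays, and that of all genes between 5.44 and 5.55. The part of this dimness in the lower share of calls was not tested. The uncalled keratin probe sets had changes between -0.35 and 0.27. With an array left out fewer keratin genes were called as lower, and calls over all probe sets also fell in number. Krt8 at 1420647_a_at then changed by -1.19 to -0.91, Krt80 by -1.06 to -0.92 and Krt6a at 1422783_a_at by -0.56 to -0.28. The 7 reference genes had a mean change of -0.37. Scaling the arrays on them moved the median over all probe sets to 0.38, and 34 keratin probe sets were higher and 7 lower. Of all probe sets 69.8% were then called, and 87.5% of those called were higher. Of those reference genes Gusb (-1.42) and Polr2a (-0.75) fell most. With the 5 others, a choice made after seeing the data, that median was 0.09, with 7 keratin probe sets higher and 8 lower. In that case 34.9% of all probe sets were called, and 61.4% of those called were higher.

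**Figure D1:**
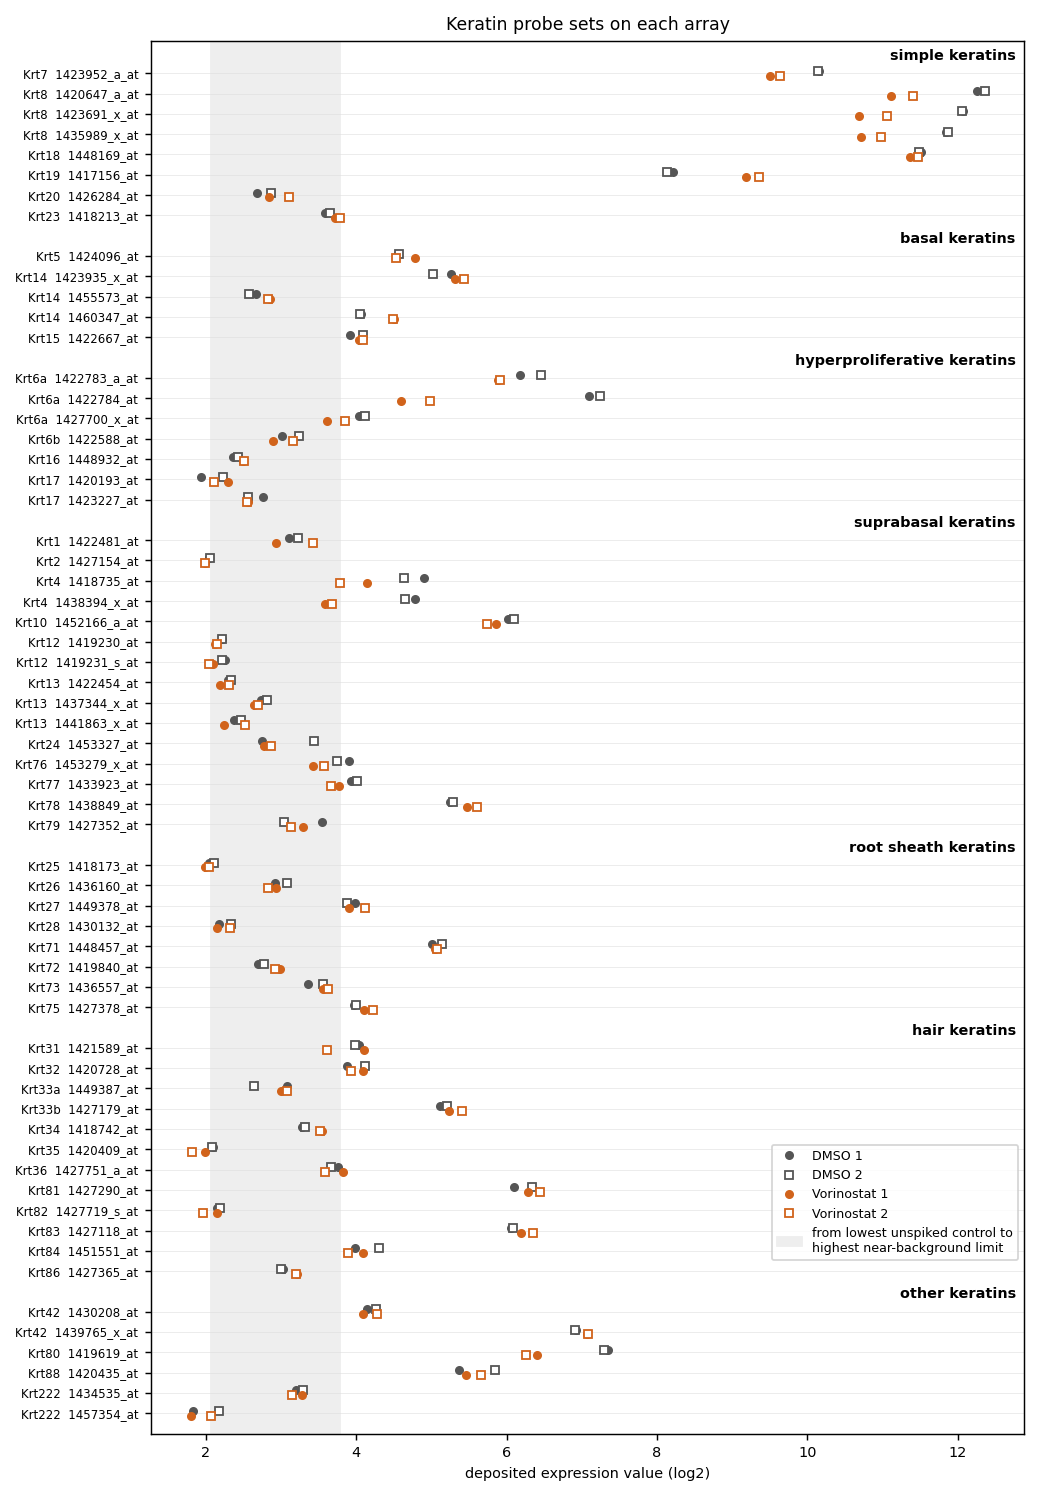
Deposited log2 value of each of the 61 keratin probe sets on each of the 4 arrays, by class; grey and orange mark DMSO and vorinostat, and the shaded band runs from the lowest TrpnX control to the highest near-background limit. Only simple keratins (Krt7, Krt8, Krt18 and Krt19) lie above 8, and most root sheath and hair keratins lie below 5.

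Krt8, the type II keratin of simple epithelia, fell by about 1 log2 unit at each of its 3 probe sets. At 1420647_a_at it measured 12.25 and 12.36 on the DMSO arrays and 11.11 and 11.40 on the vorinostat arrays. That is a change of -1.05 (SE 0.12, adjusted p = 0.00222), or 2.07-fold lower. Both vorinostat arrays lay below both DMSO arrays, with Vorinostat 1 the lowest. Probe set 1423691_x_at gave 12.07 and 12.05 in DMSO and 10.69 and 11.06 in vorinostat, a change of -1.18 (SE 0.14, adjusted p = 0.00234). Probe set 1435989_x_at gave 11.84 and 11.87 in DMSO and 10.71 and 10.97 in vorinostat, a change of -1.01 (SE 0.11, adjusted p = 0.00194). The 3 probe sets thus moved together on the same arrays. Those ending in _x_at hold probes that can match other transcripts, so they are not independent readings of Krt8. Leaving out DMSO 1 (-1.18, adjusted p = 0.0538) or DMSO 2 (-1.19, adjusted p = 0.0505) ended the call at 1423691_x_at.

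Krt18, the type I partner of Krt8, measured 11.51 and 11.48 in DMSO and 11.37 and 11.48 in vorinostat. Its change was -0.07 (SE 0.08, adjusted p = 0.581), and DMSO 2 and Vorinostat 2 were equal to the second decimal. The partners of this filament therefore differed in their change. The change of Krt8 minus that of Krt18 was -0.98 at 1420647_a_at, -1.11 at 1423691_x_at and -0.94 at 1435989_x_at. Over the pairs of a vorinostat and a DMSO array, the first of these ran from -1.13 to -0.82. An exact two-sided permutation test over the 4 arrays gave p = 0.333, the smallest this design allows. The scalings tried here shift all values of an array alike, which leaves the difference between the genes unchanged. The sign of the Krt18 change does depend on them: with reference-gene scaling it was 0.30 (adjusted p = 0.0277).

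Krt19, a small type I keratin of simple epithelia, was the keratin gene that rose. Its probe set measured 8.21 and 8.13 in DMSO and 9.18 and 9.36 in vorinostat, a change of 1.10 (SE 0.10, adjusted p = 0.000928), or 2.14-fold. Both vorinostat arrays lay above both DMSO arrays, and the gap between groups was several times the difference within either. With each array left out in turn the change ran from 1.01 to 1.19 and kept its call.

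Krt7, a type II keratin of glandular and ductal epithelia, measured 10.15 and 10.14 in DMSO and 9.50 and 9.64 in vorinostat. It fell by 0.57 on the log2 scale (SE 0.09, adjusted p = 0.00571), a smaller fall than that of Krt8, and the groups did not overlap. Leaving out DMSO 1 (-0.57, adjusted p = 0.0602), DMSO 2 (-0.58, adjusted p = 0.0568) or Vorinostat 1 (-0.51, adjusted p = 0.0525) ended its call, as did reference-gene scaling (-0.21, adjusted p = 0.0904). The change of Krt7 minus that of Krt19 was -1.67 (exact permutation p = 0.333, the smallest possible). The remaining simple keratins were dim. Krt20, known from intestinal and urothelial surface cells, lay at 2.68 to 3.11, near background on every array. Krt23 lay at 3.59 to 3.78, with a change of 0.13 (SE 0.08, adjusted p = 0.309).

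**Figure D2:**
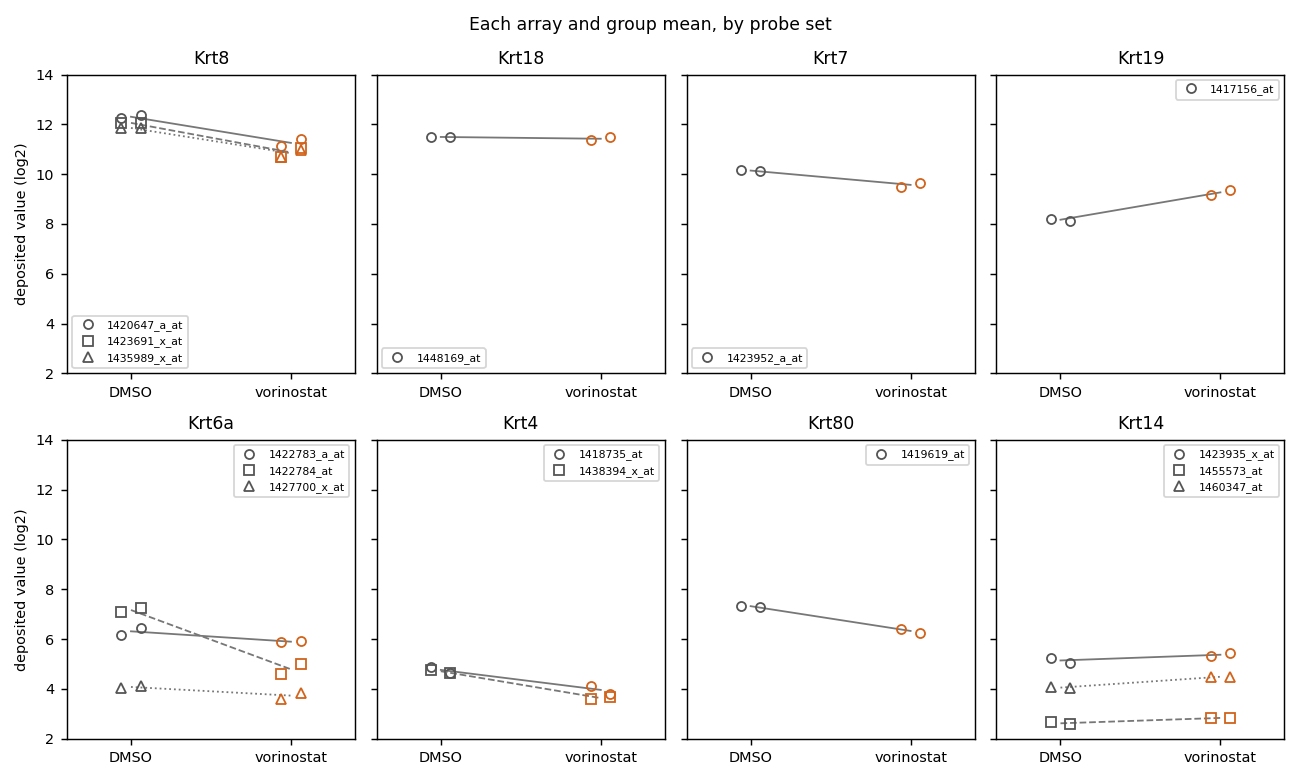
Deposited log2 values on each array (points) (grey for DMSO, orange for vorinostat) and group means (joined by lines) for Krt8, Krt18, Krt7, Krt19, Krt6a, Krt4, Krt80 and Krt14, with 1 symbol per probe set. Krt8 falls while Krt18 stays level and Krt19 rises, and the 3 probe sets of Krt6a fall by different amounts, from -0.35 to -2.38.

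The basal keratins were low in both groups. No basal gene passed by the probe set that represents it, where 39.9% of all genes were called. Krt5, the type II keratin of basal cells, measured 4.55 and 4.57 in DMSO and 4.78 and 4.52 in vorinostat, a change of 0.09 (SE 0.11, adjusted p = 0.602), with overlapping groups. Krt15, a type I basal keratin, measured 3.92 and 4.09 in DMSO and 4.03 and 4.08 in vorinostat, a change of 0.05 (SE 0.09, adjusted p = 0.724). Krt14, the type I partner of Krt5, had 3 probe sets that differed in level and in call. The brightest, 1423935_x_at, measured 5.26 and 5.02 in DMSO and 5.31 and 5.43 in vorinostat, a change of 0.23 (SE 0.11, adjusted p = 0.192). At 1460347_at it measured 4.06 and 4.05 in DMSO and 4.50 and 4.48 in vorinostat, and rose by 0.44 (SE 0.08, adjusted p = 0.00957). Probe set 1455573_at was near background on each array, with a change of 0.22 (SE 0.08, adjusted p = 0.104). All 3 lay higher with vorinostat by means, but only 1460347_at passed. Its call was lost without DMSO 1 (0.44), DMSO 2 (0.43), Vorinostat 1 (0.43) or Vorinostat 2 (0.44), with adjusted p from 0.0595 to 0.0715. The basal transcription factor Trp63 lay between 4.10 and 4.64, with a change of 0.05 (adjusted p = 0.869).

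Among the hyperproliferative keratins, Krt6a held the largest keratin fall, at 1 of its 3 probe sets. Probe set 1422784_at measured 7.10 and 7.24 in DMSO and 4.59 and 4.98 in vorinostat, a change of -2.38 (SE 0.15, adjusted p = 0.00039), or 5.20-fold lower. Probe set 1422783_a_at has a slightly higher mean and represents the gene. It measured 6.17 and 6.45 in DMSO and 5.88 and 5.91 in vorinostat, a change of -0.42 (SE 0.12, adjusted p = 0.0457). The third, 1427700_x_at, measured 4.04 and 4.12 in DMSO and 3.61 and 3.85 in vorinostat, a change of -0.35 (SE 0.11, adjusted p = 0.0656). All 3 lay lower on both vorinostat arrays, but the size of the fall depended on the probe set: the change at 1422784_at was 1.96 log2 units further below 0 than at 1422783_a_at. Krt6a and Krt6b are near-identical genes, so which of them each probe set reads is uncertain. The call at 1422784_at held with each array left out (-2.58 to -2.18). That at 1422783_a_at was lost without DMSO 2 (-0.28), Vorinostat 1 (-0.40) or Vorinostat 2 (-0.43), with reference-gene scaling (-0.05), and with that scaling less Gusb and Polr2a (-0.34, adjusted p = 0.0818). Under the first of these scalings 1427700_x_at turned to 0.02.

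The other members of this class were near background on all arrays. Krt6b measured 3.01 and 3.23 in DMSO and 2.89 and 3.16 in vorinostat, a change of -0.10 (SE 0.13, adjusted p = 0.649). Krt16, the usual type I partner of Krt6a in wounded epidermis, lay at 2.36 to 2.51, with a change of 0.11 (SE 0.08, adjusted p = 0.376). Krt17 lay at 1.93 to 2.76 over its 2 probe sets, with changes of -0.11 at 1423227_at (adjusted p = 0.463) and 0.12 at 1420193_at (adjusted p = 0.556). Krt6a was therefore measured above the limit without a type I keratin of its own class.

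Of 11 suprabasal keratin genes, Krt4 fell and 10 did not pass, where 18.9% of all genes fell and 20.9% rose. Krt4, a type II keratin of non-cornifying stratified epithelia such as the oesophagus, measured 4.90 and 4.63 in DMSO and 4.14 and 3.79 in vorinostat at 1418735_at. This is a change of -0.80 (SE 0.16, adjusted p = 0.014). At 1438394_x_at it measured 4.78 and 4.64 in DMSO and 3.59 and 3.68 in vorinostat, a change of -1.08 (SE 0.09, adjusted p = 0.000833). Both probe sets had lower values on both vorinostat arrays, and both came close to the near-background limit there. The call at 1418735_at was lost without DMSO 1 (-0.67), DMSO 2 (-0.94) or Vorinostat 2 (-0.63), while that at 1438394_x_at held in each case. Krt13, the type I partner of Krt4, was near background at its 3 probe sets, from 2.19 to 2.81.

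Krt10, the type I keratin of the upper epidermis, measured 6.02 and 6.10 in DMSO and 5.86 and 5.73 in vorinostat. Its groups did not overlap, but the change of -0.27 (SE 0.09, adjusted p = 0.0762) did not pass. It passed as lower after median centring (-0.33, adjusted p = 0.0414) and when only probe sets above the median level were tested (-0.27, adjusted p = 0.0317), and became 0.10 with reference-gene scaling. Krt1, its type II partner, was near background. Krt78, a type II keratin, measured 5.25 and 5.29 in DMSO and 5.47 and 5.60 in vorinostat, a change of 0.27 (SE 0.09, adjusted p = 0.0741). It passed as higher with reference-gene scaling (0.63), with that scaling less Gusb and Polr2a (0.35), and above the median level only (0.27, adjusted p = 0.0301). Krt76 and Krt77 had changes of -0.33 (adjusted p = 0.0676) and -0.26 (adjusted p = 0.0796). Krt76 was near background in vorinostat, at 3.42 and 3.57, so the size of its fall is uncertain. These 4 genes (Krt10, Krt78, Krt76 and Krt77) lay near the threshold, 3 of them lower and 1 higher by means. Krt2 and Krt12, the latter the keratin of the cornea, were near background on all arrays, and Krt79, like Krt76, was so in vorinostat only. Krt3 and Krt9 were not analysed here. Krt24 was near background on all arrays. It had the widest gap between arrays of a group among the keratins, 2.74 and 3.44 in DMSO, against 2.78 and 2.86 in vorinostat.

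None of 12 hair keratin genes and none of 8 root sheath keratin genes passed in limma's test, where 39.9% of all genes were called. An unadjusted p under 0.05 was found for 1 gene of each class, against 48.7% of all genes. Hair keratins had changes from -0.18 to 0.23 and root sheath keratins from -0.12 to 0.22. In each of these classes 5 genes were near background on all arrays: Krt33a, Krt34, Krt35, Krt82 and Krt86 of the hair class, and Krt25, Krt26, Krt28, Krt72 and Krt73 of the root sheath. Krt31, Krt32, Krt36 and Krt84 of the hair shaft and Krt27 and Krt75 of the root sheath were dim but had at least 1 array above the limit in each group, and none over 4.30. Krt39, Krt40, Krt85, Krt87 and the root sheath gene Krt74 were not analysed here. The brighter hair keratins were Krt81, at 6.10 to 6.45 with a change of 0.14 (SE 0.12, adjusted p = 0.432), and Krt83, at 6.05 to 6.35 with a change of 0.20 (SE 0.09, adjusted p = 0.152). Krt33b lay at 5.11 to 5.40, with a change of 0.16 (SE 0.10, adjusted p = 0.29). Krt81, Krt83 and Krt86 are closely similar genes, and their probe sets may not tell them apart. Krt71, a root sheath keratin, lay at 5.01 to 5.14, with a change of -0.02 (SE 0.09, adjusted p = 0.894). No hair or root sheath keratin thus moved past the threshold on the deposited scale. With reference-gene scaling 15 of these 20 genes passed as higher, with changes from 0.19 to 0.60 over the 20. The median of all probe sets then lay at 0.38, 69.8% of them were called, and 87.5% of those called were higher. Leaving Gusb and Polr2a out of that scaling, 3 of the 20 passed as higher.

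**Figure D3:**
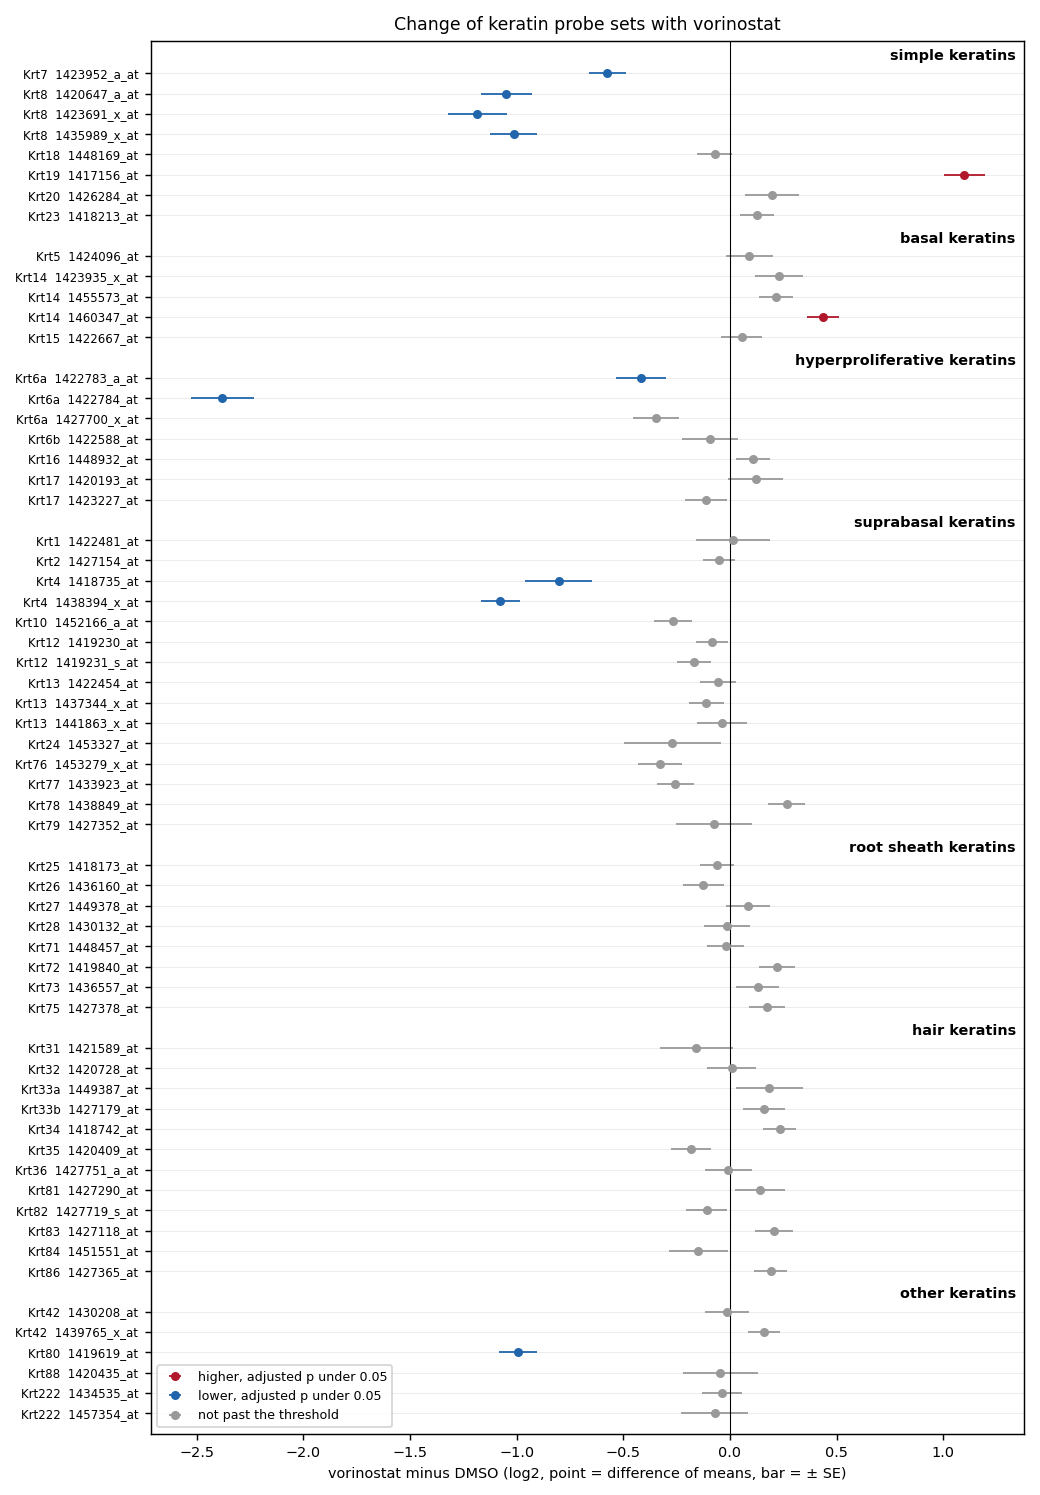
Change of each of the 61 keratin probe sets, vorinostat minus DMSO in log2 units (points, with bars of ± SE), by class and coloured by call. The 2 rises are Krt19 and 1 probe set of Krt14, the 9 falls belong to Krt7, Krt8, Krt6a, Krt4 and Krt80, and hair and root sheath keratins lie within 0.25 of no change.

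The 4 genes outside these classes were Krt80, Krt42, Krt88 and Krt222. Krt80, a type II keratin found in many epithelia, measured 7.35 and 7.30 in DMSO and 6.40 and 6.26 in vorinostat. It fell by 0.99 on the log2 scale (SE 0.09, adjusted p = 0.000986), or 1.99-fold, and the groups were well apart. With each array left out the change ran from -1.06 to -0.92 and stayed called. Krt42, a type I keratin close to Krt17, measured 6.92 and 6.91 in DMSO and 7.06 and 7.08 in vorinostat at 1439765_x_at, a change of 0.16 (SE 0.08, adjusted p = 0.182). Its other probe set, 1430208_at, had a change of -0.01 (adjusted p = 0.953). Krt88 had a change of -0.05 (SE 0.17, adjusted p = 0.883), and Krt222 was near background.

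The classes were set side by side by their median change, which was 0.03 over 6 simple keratin genes, 0.09 over 3 basal, -0.10 over 4 hyperproliferative and 0.07 over 12 hair keratin genes. It was -0.11 over 11 suprabasal genes, 0.04 over 8 root sheath genes and -0.04 over the 4 others, against 0.03 over all genes. The simple class had 1 rise and 2 falls of 6, so its median near 0 hides changes in both directions. The hyperproliferative, suprabasal and other classes had 1 fall each, and the basal, root sheath and hair classes had no call among their genes. Of all genes, 20.9% rose and 18.9% fell. Differences between the classes were not tested. Reference-gene scaling gave medians of 0.40, 0.46, 0.27 and 0.44 for the simple, basal, hyperproliferative and hair classes, all near the shift it applies.

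Sorted by protein type, a division added after the values were seen, all 5 genes that fell encode type II keratins and the 1 that rose encodes a type I keratin. Of 25 type I genes 1 rose and none fell, and of 23 type II genes none rose and 5 fell by limma. The type II falls are 21.7%, near the 18.9% of all genes that fell. An unadjusted p under 0.05 was found for 3 type I and 9 type II genes, or 12% and 39.1%, against 48.7% of all genes. The division held neither for the whole type nor for the family's pairs, as Krt5, Krt1 and Krt6b are type II genes that did not pass. The medians of the types were -0.01 and -0.05.

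Keratin genes lie in a type I and a type II cluster, and the order of genes was read from the RefSeq table (assembly GRCm38.p6), which names all 48. Krt8 and Krt18 are direct neighbours at the end of the type II cluster, where Krt18 is the single type I gene. One of these neighbours fell and the other did not pass. Krt78, on the other side of Krt8, had a change of 0.27 (adjusted p = 0.0741). Krt80 and Krt7, neighbours at the opposite end, both fell. Krt6a lies between Krt6b and Krt5, neither of which passed, and Krt4 between Krt76 and Krt79, with changes of -0.33 and -0.07 (adjusted p = 0.0676 and 0.805). Beside Krt19 lies Krt15 (0.05). Apart from Krt80 and Krt7, no called keratin gene thus had a called keratin among its measured neighbours. Krt9, on the other side of Krt19, and Krt87, on the other side of Krt7, were not analysed here.

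The calls differed in whether they outlasted the loss of any single array. Krt19, Krt80, Krt8 at 1420647_a_at and 1435989_x_at, Krt6a at 1422784_at and Krt4 at 1438394_x_at kept their call when any single array was left out. The 5 other called probe sets each lost it in at least 2 of the 4 cases. None of the 11 changed sign. Calls over all probe sets also fell in number with an array left out, so a lost call is not particular to these probe sets. Krt14 at 1460347_at kept a change of 0.43 to 0.44, and Krt7 one of -0.64 to -0.51.

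**Figure D4:**
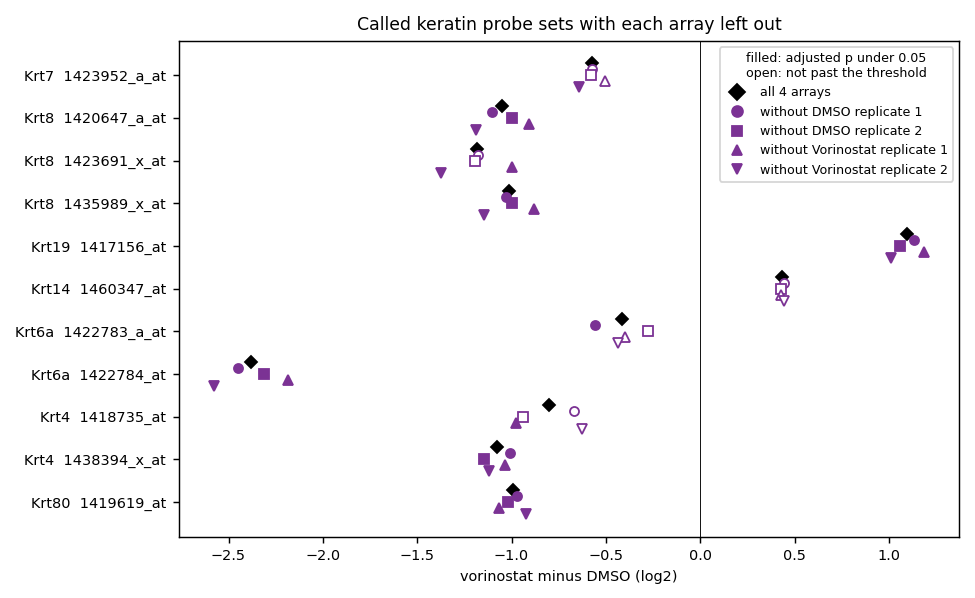
Log2 change of the 11 called keratin probe sets with all 4 arrays (black diamonds) and with each array left out in turn (purple), filled where the adjusted p stayed under 0.05 and open where it did not. Krt14 at 1460347_at is open in all 4 cases, and Krt6a at 1422784_at stays between -2.58 and -2.18.

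Genes that anchor keratin filaments at cell junctions were followed as a companion list. All companion lists were chosen with earlier results of these data known, so their shares are descriptions and do not show an excess over all genes. Of 13 desmosome and linker genes measured, 6 rose and 1 fell, against 20.9% and 18.9% of all genes, with a median change of 0.18. Ppl, the linker periplakin, measured 5.19 and 5.04 in DMSO and 6.34 and 6.43 in vorinostat, and rose by 1.27 (SE 0.09, adjusted p = 0.000587). Pkp2, a desmosomal plaque protein of simple epithelia, measured 7.74 and 7.60 in DMSO and 8.93 and 8.81 in vorinostat, and rose by 1.20 (SE 0.10, adjusted p = 0.000707). Of its 3 other probe sets, 1 rose, by 1.25, and 2 dimmer ones had 0.39 and 0.00 and did not pass. Pkp3, another plaque protein, was the member that fell, by 0.54 (SE 0.12, adjusted p = 0.02). Its other probe set also fell, by 0.34 (adjusted p = 0.0226). The Pkp3 call was lost without DMSO 2 (-0.40), Vorinostat 1 (-0.54) or Vorinostat 2 (-0.54), and with reference-gene scaling (-0.17). Of 8 hemidesmosome genes, which fix keratin to the basement membrane, 4 rose and none fell, where 20.9% of all genes rose. Lama3 rose by 0.92 (SE 0.09) and Lamb3 by 0.88 (SE 0.10), both laminin chains. A dim second probe set of Lama3 had a change of 0.05 and did not pass. Fewer of the 8 were called with an array left out, where calls over all probe sets also fell in number.

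The cornified envelope list, proteins that harden around the keratin of terminally differentiated epidermis, had 6 of 24 members higher and none lower, with a median of 0.12. The 6 that rose were Sprr1a, Sprr1b, Sprr2d, Sprr2h, Sprr2k and Klk5, the last of them near background on all arrays. Among those that did not pass were Sprr2f, Sprr2i, Sprr3, Ivl, Lor, Flg, Tgm1 and Tgm3. The rises are 25% of the list, near the 20.9% of all genes that rose. Its largest rises were the largest of any companion list. Sprr2h, a small proline-rich envelope protein, measured 4.59 and 4.56 in DMSO and 9.74 and 9.73 in vorinostat, a change of 5.16 (SE 0.08, adjusted p = 0.00016). Its probe set, 1422240_s_at, is of a type shared by related transcripts. Sprr1b measured 4.83 and 4.68 in DMSO and 9.14 and 8.80 in vorinostat, a change of 4.22 (SE 0.14, adjusted p = 0.00016). Of the 24, 11 were near background on all arrays. On the deposited scale these rises stood beside no called rise of the epidermal keratins Krt1, Krt2 or Krt10.

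Of 38 keratin-associated protein genes, which cross-link keratins in the hair shaft, 29 were near background, 2 rose and none fell, where 20.9% of all genes rose and 18.9% fell. Krtap1-5 measured 4.17 and 4.57 in DMSO and 7.01 and 6.34 in vorinostat, and rose by 2.31 (SE 0.25, adjusted p = 0.00188). Krtap5-1 rose by 0.46 (SE 0.12, adjusted p = 0.0374) at 1450540_x_at, but had -0.08 (adjusted p = 0.588) at its other probe set. The Krtap5-1 call was lost without DMSO 1 (0.41), DMSO 2 (0.50) or Vorinostat 1 (0.31). Krtap1-5 thus rose while no hair keratin passed on the deposited scale.

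Of 15 other intermediate filament genes, 1 rose and 3 fell, with a median of 0.00. The falls are 20% of the list, close to the 18.9% of all genes, and the 1 rise is 6.67%, against 20.9%. Vim, the filament of mesenchymal cells, rose by 0.40 (SE 0.08, adjusted p = 0.0134), but did not pass without DMSO 1 (0.39), DMSO 2 (0.40), Vorinostat 1 (0.38) or Vorinostat 2 (0.41). Its other 2 probe sets rose by 0.52 (adjusted p = 0.00739) and 0.54 (adjusted p = 0.00603). The nuclear lamin gene Lmnb1 measured 9.49 and 9.44 in DMSO and 7.79 and 7.84 in vorinostat, and fell by 1.65 on the log2 scale (SE 0.08). Lmnb2, another lamin gene, fell by 0.76 (SE 0.09).

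Transcription and splicing factors of epithelial cells rose in 7 of 23 cases and fell in 2, with a median of 0.09. These are 30.4% and 8.70% of the list, against 20.9% and 18.9% of all genes. Elf3, an epithelial factor of the ETS family, rose by 1.17 (SE 0.08, adjusted p = 0.000443). Msx2, a homeobox factor of the hair follicle, rose by 0.75 (SE 0.19, adjusted p = 0.031), and lost its call without DMSO 2 (0.50), Vorinostat 1 (0.86) or Vorinostat 2 (0.65). A fit with the replicate number as a block also ended it (adjusted p = 0.0921). A second Msx2 probe set, near background, had 0.06 and did not pass. Foxa1, a pioneer factor of prostate luminal cells, measured 8.23 on both DMSO arrays and 7.20 and 7.35 in vorinostat, and fell by 0.96 (SE 0.09, adjusted p = 0.00117). Esrp1, an epithelial splicing regulator, fell by 0.83 (SE 0.09, adjusted p = 0.00191). Fewer members were called as higher with an array left out, where calls over all probe sets also fell in number.

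The list of keratin chaperones, regulators and caspases had 5 of 12 members higher and 4 lower, with a median of 0.22. These are 41.7% and 33.3%, against 20.9% and 18.9% of all genes. Hspb1, a small heat shock protein that binds filaments, measured 10.26 and 10.27 in DMSO and 12.94 and 12.91 in vorinostat, and rose by 2.66 (SE 0.08, adjusted p = 0.00016). Hspa1a, an inducible chaperone of the Hsp70 family, rose by 2.18 (SE 0.10, adjusted p = 0.000225). Pnn, a keratin-binding and splicing-related protein, fell by 1.28 (SE 0.13), and Trim16, a ubiquitin ligase, fell by 1.13 (SE 0.09). Fewer members were called as lower with an array left out, where calls over all probe sets also fell in number. Counts of rises in all these lists depend on the scaling. With the 7 reference genes, 10 desmosome, 21 cornified envelope and 24 keratin-associated genes were higher. That scaling called 69.8% of all probe sets, 87.5% of those as higher, so rises under it are not particular to these lists.

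**Figure D5:**
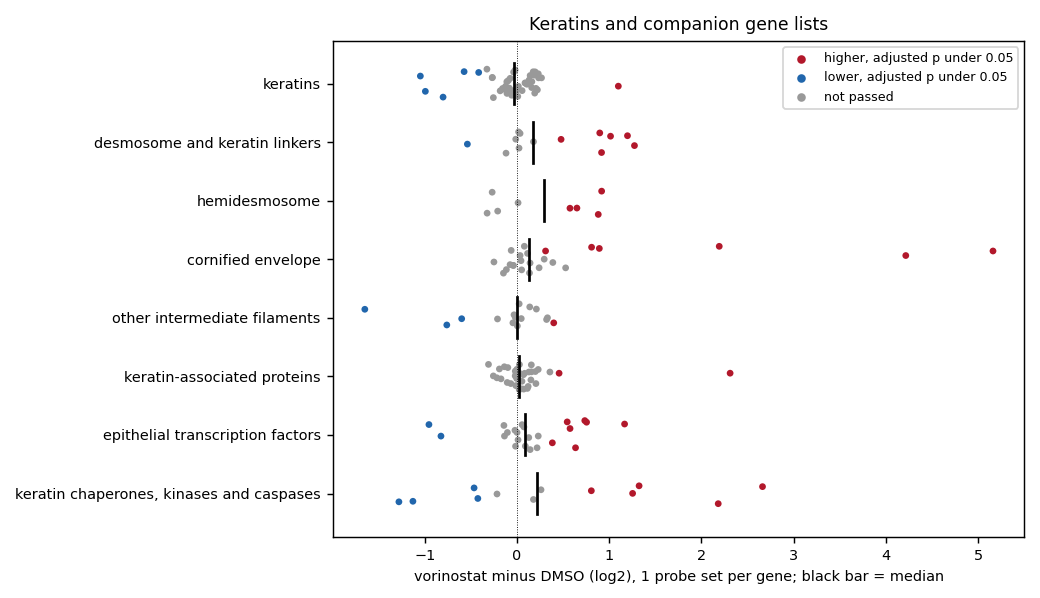
Log2 change, vorinostat minus DMSO, of the 48 keratin genes and of each companion list, with 1 point per gene coloured by call, spread vertically for legibility, and a black bar at the median. Keratins have 1 rise and 5 falls, while the desmosome list has 6 rises and 1 fall and the cornified envelope list 6 rises and no fall.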

How the data were processed

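Each array gave 1 deposited log2 value per probe set. RMA and the Transcriptome Analysis Console are the tools listed in the submitters' processing notes, with no version. RMA removes background, makes the arrays' distributions equal and combines the probes of a set, so a shift common to every transcript would not show. The genome build was not given in the sources used here. Of 45101 probe sets, 64 controls were left out of the tests. Changes were fitted with limma 3.58.1 under R 4.3.3 (lmFit and eBayes, prior degrees of freedom 3.26), without further normalization or a filter on low values, and the code was tested on simulated data. The number of arrays limits the precision. Described in full were keratins with a called probe set, those with a group mean above 4.26, the median of all probe sets, and 11 taken in any case for their class. For companion lists these were up to the 2 largest rises and falls. The members, classes and lists were chosen with earlier results of these data known. Of 9 reference genes planned, the 7 with a probe set of 1 symbol were used. Alternatives were other scalings, an intensity trend, a level filter, a replicate block, a filter by probe set name, averaged probe sets and leaving out each array.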

Additional observations from a re-analysis of the deposited data

How the results depend on the processing

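All 11 called keratin probe sets kept their direction under each alternative that could fit them. Scaling mattered most, and the cause was not tested. Centring each array on its median gave 8 keratin genes lower, 1 hemidesmosome gene lower and -0.0054 for Krt15. With the 7 reference genes, 34 keratin probe sets and 29 keratin genes were higher and 3 genes lower. That scaling called 69.8% of all probe sets, 87.5% of those as higher, so rises under it are not particular to keratins or the companion lists. The class medians were then 0.40 (simple), 0.46 (basal), 0.27 (hyperproliferative), 0.26 (suprabasal), 0.40 (root sheath), 0.44 (hair) and 0.33 (other). Desmosome genes were 10 higher and 0 lower, cornified envelope genes 21 higher, other intermediate filament genes 10 higher, keratin-associated genes 24 higher, epithelial factors 15 higher, and chaperones and regulators 2 lower. Of 37 keratin probe sets with a negative change 28 turned positive, among those described in full Krt18 0.30, Krt6a at 1427700_x_at 0.021, Krt6b 0.27, Krt17 0.26, Krt10 0.10, Krt71 0.35 and Krt88 0.32. Without Gusb and Polr2a, 7 keratin probe sets, 5 keratin genes and 2 other intermediate filament genes were higher, Krt6a at 1422783_a_at lost its call, and 13 of the 37 turned positive. The simple and hyperproliferative medians were then 0.11 and -0.022, and Krt18 had 0.0084, Krt71 0.060 and Krt88 0.035. An intensity trend in the fit gave 1 hemidesmosome gene lower. Testing only probe sets above the median level gave 2 keratin genes higher, medians of -0.32 (simple), -0.42 (hyperproliferative) and -0.27 (suprabasal), 1 hemidesmosome gene lower and 2 other intermediate filament genes higher. A filter by name kept only probe sets without a letter such as a, s or x before their _at ending. It dropped every probe set of Krt7 and Krt8, so it cannot speak to their falls. It gave 3 keratin probe sets lower, 2 genes higher and 3 lower, and a simple median of 0.16. With it 2 hemidesmosome genes and 1 keratin-associated gene were higher, and 2 chaperones lower. Averaging a gene's probe sets gave 4 keratin genes higher and 8 lower, 1 hemidesmosome gene lower and 2 other intermediate filament genes higher.

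With the replicate number as a block, 10 of the 11 keratin calls were shared and Krt6a at 1422783_a_at was not (-0.42, adjusted p = 0.069), and 1 keratin-associated gene was higher. Of the companion genes named, Krtap5-1 (0.46, adjusted p = 0.0896) and Msx2 (0.75, adjusted p = 0.0921) lost their calls. Over all probe sets, DMSO 1 minus DMSO 2 and Vorinostat 1 minus Vorinostat 2 had a correlation of -0.06. The main fit leaves the numbers out because the labels do not say that they mark a shared culture or day.

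With each array left out in turn, keratin probe sets were 1 to 1 higher and 5 to 7 lower, and keratin genes 2 to 4 lower. The suprabasal median ran from -0.20 to -0.086 and that of the other keratins from -0.18 to 0.083. Desmosome genes were 0 to 1 lower, hemidesmosome genes 2 to 3 higher, other intermediate filament genes 0 to 1 higher, keratin-associated genes 1 to 2 higher, epithelial factors 4 to 5 higher, and chaperones 2 to 3 lower. The sign depended on the array left out for Krt15 (-0.033 without DMSO 1, up to 0.14), Krt6b (0.016 without DMSO 2 and 0.037 without Vorinostat 1, down to -0.23), Krt71 (0.045 without DMSO 2, down to -0.086), Krt88 (0.19 without DMSO 2 and 0.054 without Vorinostat 1, down to -0.28) and Krt5 (-0.039 without Vorinostat 1, up to 0.22), none of them called. Fits that leave 1 array in a group assume that it varies like those of the other group. Calls over all probe sets also fell in number in these fits, so a lower count is not particular to these genes.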
